A study of Homo sapiens with 6 samples.

Results

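The genes described here serve cystine uptake, glutathione metabolism and ferroptosis, an iron-dependent form of cell death. They are 10 genes chosen by symbol, SLC7A11, SLC3A2, CHAC1, GCLC, GCLM, GSS, GPX4, TFRC, ACSL4 and AIFM2, among the 28278 genes counted in every library. All 10 passed edgeR's filter on low counts. They were picked with the comparison of siALDOA and siControl already known, so their differences between the groups are given as a description, without a p-value for any single gene. The data came from HT29 cells, a human colorectal adenocarcinoma line of epithelial morphology, in 3 libraries transfected with siRNA against the glycolytic enzyme aldolase A (siALDOA) and 3 libraries transfected with a scrambled siRNA (siControl). RNA was taken 48 h after transfection. The labels speak of the siRNA against ALDOA in the singular, without its sequence, and name 1 cell line and no untransfected cells, so an effect of the loss of ALDOA and an effect of the siRNA itself cannot be told apart. The replicates are labelled as biological replicates without a statement on separate cultures, so the spread between libraries may be partly technical.

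Cells import cystine through system xc-, a pair of proteins in which SLC7A11 (xCT) carries the substrate and SLC3A2 holds it in the membrane. Cysteine made from cystine is joined to glutamate by glutamate-cysteine ligase, whose catalytic subunit is GCLC and whose modifier subunit is GCLM, and glutathione synthetase (GSS) adds glycine. CHAC1 cleaves glutathione in the cytosol. GPX4 spends glutathione to reduce lipid hydroperoxides, and AIFM2 (FSP1) protects membranes by a separate route through reduced ubiquinone. TFRC, the transferrin receptor, brings in iron, and ACSL4 loads polyunsaturated fatty acids into the membrane lipids that oxidize during ferroptosis. ATF4, a factor of the amino acid response, is known to drive SLC7A11, SLC3A2 and CHAC1, and NFE2L2 (NRF2) is known to drive GCLC, GCLM and SLC7A11.

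Promoters from 250 bases before to 50 bases after an annotated start were taken from RefSeq (GRCh38.p14), which held 12 windows for 8 of the 10 genes, without SLC7A11 and GSS. They are shown because both factors named above have known recognition words, and nothing is read from them about the differences between the groups. The words searched on both strands were TGATGNAA, the core of the element bound by ATF4 with C/EBP proteins, and TGACNNNGC, the core of the antioxidant response element of NFE2L2. The first occurred in 3.62% of 35116 windows in the table and the second in 13.3%. Capitals mark a match, which may lie on the reverse strand, and the matches did not overlap each other. CHAC1 held TTGCATCA, its first base 209 bases before the start. SLC3A2 held TGACTCAGC from 37 bases before the start and TTACATCA from base 38 after it, in 1 of its 3 windows. GCLM held GCTTAGTCA from 34 bases and AIFM2 GCTGAGTCA from 22 bases before the start. The windows of GCLC, GPX4, TFRC and ACSL4 held neither word. A match describes letters in a window, and no binding was measured.
CHAC1 (chr15:40953221-40953520, plus strand): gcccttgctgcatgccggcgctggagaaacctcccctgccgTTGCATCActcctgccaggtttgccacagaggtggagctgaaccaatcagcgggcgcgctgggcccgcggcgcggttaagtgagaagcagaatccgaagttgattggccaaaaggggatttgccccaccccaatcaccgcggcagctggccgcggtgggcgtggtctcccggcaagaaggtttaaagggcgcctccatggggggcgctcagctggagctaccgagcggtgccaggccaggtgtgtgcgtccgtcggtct
SLC3A2 (chr11:62881449-62881748, plus strand): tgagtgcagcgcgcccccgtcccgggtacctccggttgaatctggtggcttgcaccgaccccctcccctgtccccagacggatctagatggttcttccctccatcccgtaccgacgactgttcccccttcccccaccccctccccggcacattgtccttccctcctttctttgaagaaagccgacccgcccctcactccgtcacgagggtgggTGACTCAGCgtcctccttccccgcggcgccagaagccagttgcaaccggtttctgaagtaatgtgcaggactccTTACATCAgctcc
GCLM (chr1:93909381-93909680, minus strand): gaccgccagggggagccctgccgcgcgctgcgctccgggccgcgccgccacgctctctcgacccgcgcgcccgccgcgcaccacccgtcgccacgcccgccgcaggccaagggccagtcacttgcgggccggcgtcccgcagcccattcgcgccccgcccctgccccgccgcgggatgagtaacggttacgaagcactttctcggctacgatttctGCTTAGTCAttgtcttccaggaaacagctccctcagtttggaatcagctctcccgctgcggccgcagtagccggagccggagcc
AIFM2 (chr10:70132776-70133075, minus strand): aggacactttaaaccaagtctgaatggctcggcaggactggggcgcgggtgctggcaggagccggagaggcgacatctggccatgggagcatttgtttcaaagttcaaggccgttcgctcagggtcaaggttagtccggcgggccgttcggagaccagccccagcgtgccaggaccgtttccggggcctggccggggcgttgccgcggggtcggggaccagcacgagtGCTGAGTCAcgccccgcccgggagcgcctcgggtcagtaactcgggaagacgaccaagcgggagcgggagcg

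The libraries held 27277538 to 33237914 counts, and the 10 genes had from 589 counts (CHAC1) to 14975 counts (SLC3A2) per library. Levels are given as CPM, the standard library-size scale for counts, with library sizes adjusted by TMM normalization. The target ALDOA stood at 283, 305 and 280 CPM with siALDOA and at 592, 637 and 668 CPM with siControl, lower in all 3 siALDOA libraries. Ribosomal RNA genes took 13.1% of the counts of siALDOA replicate 1 and 17.4% and 15.3% of siControl replicates 1 and 2, but 7.71% to 8.15% in the other 3 libraries. Of 11 epithelial markers, LGALS4 was listed at 0 in every library, which may come from the counting, since its annotation is not known. The summed level of the list was 8392 to 8629 CPM with siALDOA and 9203 to 9670 CPM with siControl, most of it from KRT8 and KRT18. KRT18 was called lower and the other 9 tested markers did not pass. Of the 10 tested, 8 had log2 fold changes below 0, with a median of -0.12 and a range from -0.46 (CEACAM5) to 0.26 (GPA33). In 5 of the 10 the siALDOA libraries all lay below the siControl libraries, where the background over all tested genes was 14.6%. Of 6 blood cell markers, CD3E, TYROBP and S100A8 were at 0 throughout, no marker exceeded 11 counts, and the list summed to 0.108 to 0.387 CPM with siALDOA and 0 to 0.353 CPM with siControl. Of 8 fibroblast and endothelial markers, COL1A2 and KDR were at 0, and the list summed to 2.00 to 2.84 and 1.90 to 2.12 CPM. All 12 interferon response genes listed rose, with a summed level of 3949 to 4882 CPM with siALDOA and 1720 to 1959 CPM with siControl. The part of the epithelial markers and the interferon response in the results below was not tested. For the ribosomal RNA share, values within libraries of like share are given below, each with 1 library in an arm. Where the groups of a gene do not overlap, the sign of such a value is fixed in advance. The part of the ribosomal RNA share was therefore not tested by these values. With that share as a covariate, 5 of the 10 genes were called lower, SLC7A11 at -0.76, SLC3A2 at -0.43, CHAC1 at -0.89, GCLC at -0.28 and GCLM at -0.39 on the log2 scale, where 854 genes were lower and 726 higher over all genes. With library totals that left out ribosomal RNA genes, 5 of the 10 were called lower, where 760 genes were lower and 735 higher over all genes. Nothing is read from these counts either, for the reason given below.

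The first 5 genes, which bring in cystine and open the synthesis and breakdown of glutathione, stood with siALDOA at 59.1% to 81.3% of their siControl means, from CHAC1 to GCLC. The last 5, GSS, GPX4, TFRC, ACSL4 and AIFM2, stood at 93.3% to 114%. In edgeR's quasi-likelihood test over all genes, 5 of the 10 were lower at a Benjamini-Hochberg adjusted p < 0.05 and 0 were higher, where 5.29% of the 15307 tested genes were called lower and 4.36% higher, 9.66% in all. All 10 had log2 fold changes from -0.76 to 0.19 with a median of -0.20, against a median of 0.002 over all tested genes. In 6 of the 10 every siALDOA library lay below every siControl library and in 1 above, where the background was 14.6% and 13.1%. Since the genes were picked on this comparison, nothing is read from these counts. The plot of levels by library shows all values.

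**Figure D1:**
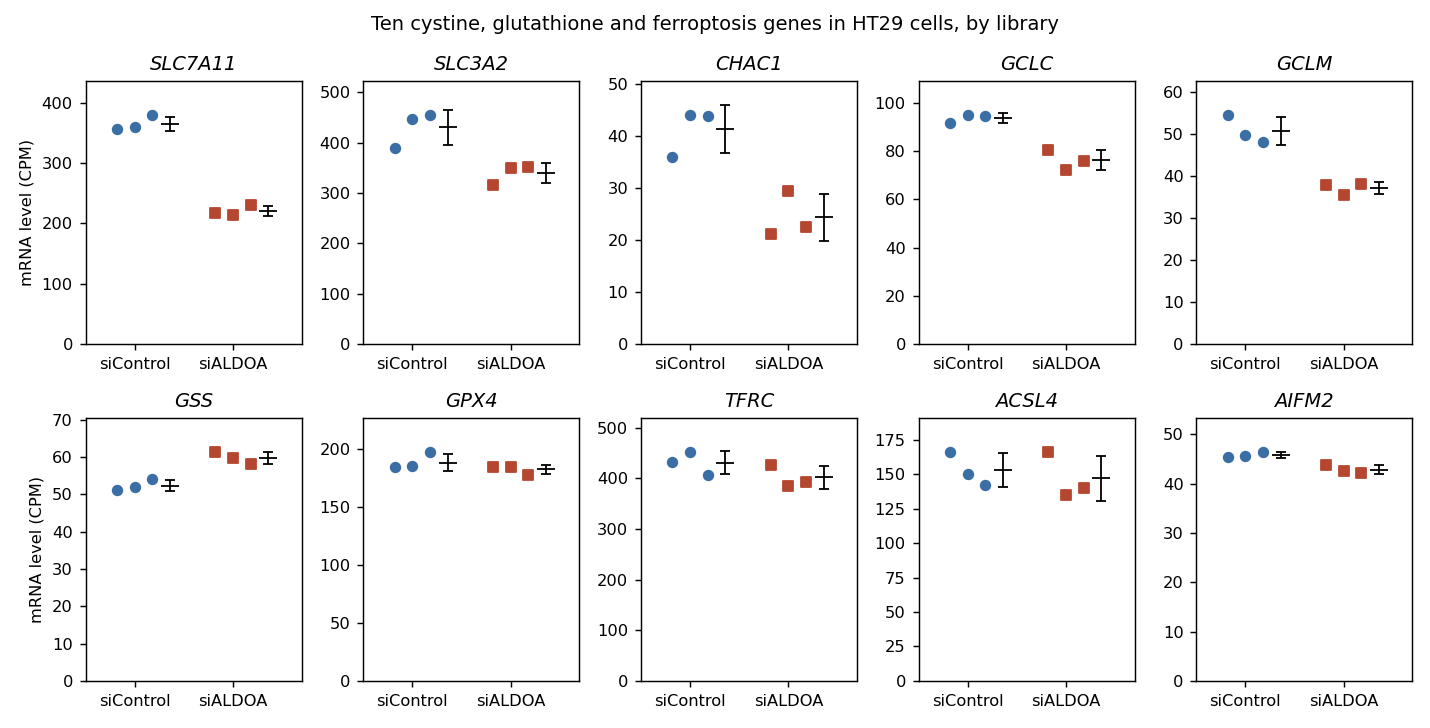
Levels of the 10 genes in CPM (vertical axis, from 0) in the 3 siControl libraries (blue circles) and the 3 siALDOA libraries (red squares), with the mean and SD beside them in black. The 5 genes of the upper row do not overlap between the groups, and of the lower row GPX4, TFRC and ACSL4 overlap.

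SLC7A11, the cystine carrier (chromosome 4, 138164097 to 138242349, minus strand of hg38), stood at 218, 214 and 230 CPM with siALDOA and at 357, 360 and 379 CPM with siControl. The siALDOA libraries lay close to each other and far below the lowest siControl library. The means were 221 ± 8.66 CPM (SD, n = 3) and 365 ± 11.8 CPM (SD, n = 3), so that 60.4% of the siControl level remained, and the log2 fold change was -0.73 with a standard error of 0.056. Of all tested genes, 1.27% had a lower log2 fold change. The log2 ratio was -0.72 among the libraries with over 10% ribosomal RNA counts (1 siALDOA against 2 siControl) and -0.77 among those under 10% (2 against 1). The antisense RNA SLC7A11-AS1, whose annotated exons overlap those of SLC7A11, held 247 to 268 counts per siALDOA library and 398 to 416 per siControl library. The strand setting of the counting is not given in the sources used here, so reads of both genes cannot be told apart, although the antisense counts are a small part of the 6077 to 12480 counts of SLC7A11.

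SLC3A2, the heavy chain shared by several amino acid transporters (chromosome 11, 62856004 to 62888880, plus strand), was at 316, 349 and 352 CPM with siALDOA and at 390, 446 and 454 CPM with siControl. The groups did not overlap, but the gap between the nearest libraries was smaller than for SLC7A11 and smaller than the range of the siControl libraries. Its log2 fold change (± SE) of -0.34 ± 0.065 left 78.8% of the siControl level. It is 1 of 2 of these genes, with GCLC, that lost the adjusted p < 0.05 when libraries were scaled by their totals only, where it changed to -0.27. Within libraries of like ribosomal RNA share the log2 ratio was -0.40 and -0.38.

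Since carrier and heavy chain work as a pair, their levels were set against each other within each library, as CPM per kilobase of the canonical transcript (9645 bases for SLC7A11, 1885 for SLC3A2). The ratio of SLC7A11 to SLC3A2 was 0.135, 0.120 and 0.128 with siALDOA and 0.179, 0.158 and 0.163 with siControl. It was thus lower in each siALDOA library than in any siControl library, a value that does not depend on the scaling of libraries. The absolute size of the ratio depends on which transcripts the cells use.

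CHAC1, which degrades glutathione (chromosome 15, 40952962 to 40956512, plus strand), had the lowest log2 fold change of the 10 genes and the widest spread. It was at 21.2, 29.5 and 22.6 CPM with siALDOA and at 36, 44 and 43.9 CPM with siControl. No siALDOA library reached the siControl range, and replicate 2 was the closest to it. The means of 24.4 ± 4.47 and 41.3 ± 4.6 CPM (SD, n = 3 each) gave a log2 fold change (± SE) of -0.76 ± 0.11. Without siALDOA replicate 2 the log2 fold change was -0.92 and without siALDOA replicate 1 it was -0.66. The coefficient of variation was 18.3% with siALDOA and 11.1% with siControl, the highest of the 10 genes in both groups. Within libraries of like ribosomal RNA share the log2 ratio was -0.91 and -0.77.

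CHAC2, its constitutively active relative, is not among the 10 genes and was named as a relative whatever its difference. It stood at 6.5, 4.72 and 5.35 CPM with siALDOA and at 5.20, 6.42 and 4.76 CPM with siControl, with overlapping groups. Its log2 fold change was 0.02 with a 95% interval from -0.34 to 0.38 (edgeR adjusted p = 0.968). Per kilobase, the ratio of CHAC1 to CHAC2 was 2.80, 5.38 and 3.64 with siALDOA and 5.97, 5.90 and 7.94 with siControl.

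The ligase subunits GCLC and GCLM, which set the pace of glutathione synthesis, were both lower. GCLC (chromosome 6, 53497341 to 53616970, minus strand) was at 80.6, 72.3 and 75.7 CPM with siALDOA and at 91.5, 94.8 and 94.7 CPM with siControl, a log2 fold change (± SE) of -0.30 ± 0.062. GCLM (chromosome 1, 93885199 to 93909456, minus strand) was at 37.9, 35.4 and 38.2 CPM with siALDOA and at 54.4, 49.8 and 48.0 CPM with siControl, a log2 fold change (± SE) of -0.45 ± 0.072. In both genes all siALDOA libraries lay below the siControl libraries. With library totals only GCLC moved to -0.23 and was no longer past the threshold, and GCLM moved to -0.38. Within libraries of like ribosomal RNA share, the log2 ratio of GCLC was -0.21 and -0.36 and that of GCLM -0.46 and -0.38. Per kilobase, the ratio of GCLC to GCLM was 2.75, 2.64 and 2.56 with siALDOA and 2.17, 2.45 and 2.55 with siControl, so the nearest libraries of the groups were almost equal.

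GSS, the enzyme of the last step (chromosome 20, 34928432 to 34956027, minus strand), was the only one of the 10 genes with a positive log2 fold change. It stood at 61.3, 59.7 and 58.1 CPM with siALDOA and at 51.2, 51.9 and 54.0 CPM with siControl, higher in all 3 siALDOA libraries. The log2 fold change (± SE) of 0.19 ± 0.064 did not pass an adjusted p < 0.05 in edgeR, while DESeq2 and the fit with a replicate block did call it. MYH7B, whose exons overlap GSS on the opposite strand, had 57 to 77 counts per library against 1585 or more for GSS.

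**Figure D2:**
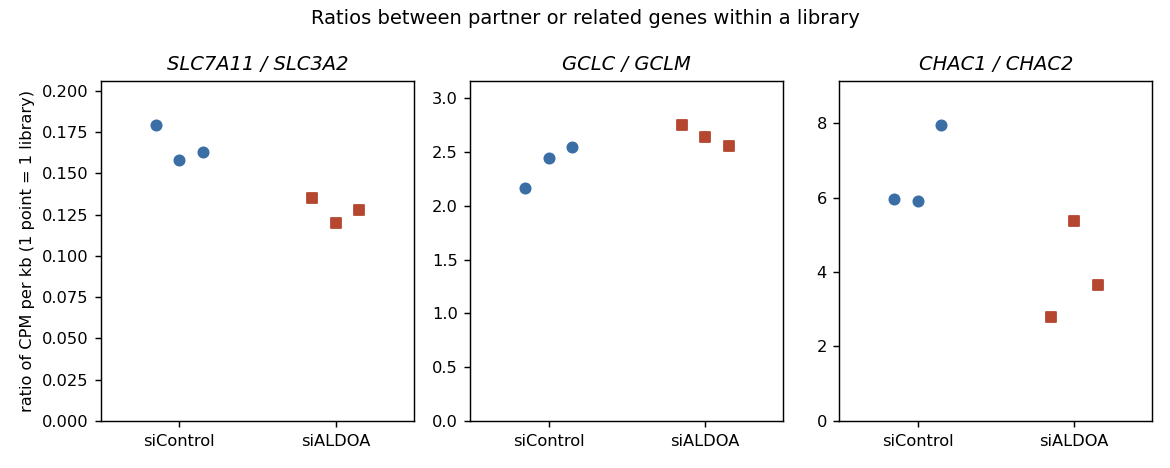
Ratio of CPM per kilobase within each library (vertical axis, from 0) for SLC7A11 to SLC3A2, GCLC to GCLM and CHAC1 to CHAC2, with 1 point per library, siControl in blue circles and siALDOA in red squares. The first ratio is 0.120 to 0.135 with siALDOA and 0.158 to 0.179 with siControl.

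GPX4, AIFM2, TFRC and ACSL4, which act on lipid peroxides, iron and membrane lipids, differed least between the groups. GPX4 (chromosome 19, 1103982 to 1106791, plus strand), the glutathione-dependent lipid peroxidase, was at 184, 184 and 177 CPM with siALDOA and at 184, 185 and 197 CPM with siControl. These groups overlapped, and the log2 fold change was -0.05 with a standard error of 0.056. AIFM2 (chromosome 10, 70098223 to 70132934, minus strand), the ubiquinone reductase, was at 43.8, 42.5 and 42.1 CPM with siALDOA and at 45.4, 45.5 and 46.4 CPM with siControl. The siALDOA libraries were all below the siControl libraries by a small step, a log2 fold change (± SE) of -0.10 ± 0.066 that did not pass the threshold and was -0.03 with library totals only.

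TFRC (chromosome 3, 196012511 to 196082153, minus strand), the receptor for iron-loaded transferrin, was at 427, 385 and 393 CPM with siALDOA and at 433, 452 and 407 CPM with siControl. Replicate 1 of siALDOA lay inside the siControl range and the other two lay below it, with a log2 fold change (± SE) of -0.10 ± 0.059. ACSL4 (chromosome X, 109624244 to 109733403, minus strand), the acyl-CoA synthetase for polyunsaturated fatty acids, was at 166, 135 and 140 CPM with siALDOA and at 166, 150 and 142 CPM with siControl. Replicate 1 was the highest library in both groups, the groups overlapped, and the log2 fold change was -0.06 (standard error 0.074). With library totals only, GPX4 and ACSL4 changed sign to 0.02 each. Among libraries with over 10% and under 10% ribosomal RNA counts, the log2 ratio was 0.25 and 0.13 for GSS, 0.00 and -0.12 for GPX4, -0.05 and -0.07 for TFRC, 0.07 and -0.05 for ACSL4 and -0.05 and -0.13 for AIFM2. KCNE5 and MACROH2A2, which overlap ACSL4 and AIFM2, had at most 19 and 10 counts per library. None of GPX4, TFRC, ACSL4 and AIFM2 was called in any of the 14 alternative fits.

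**Figure D3:**
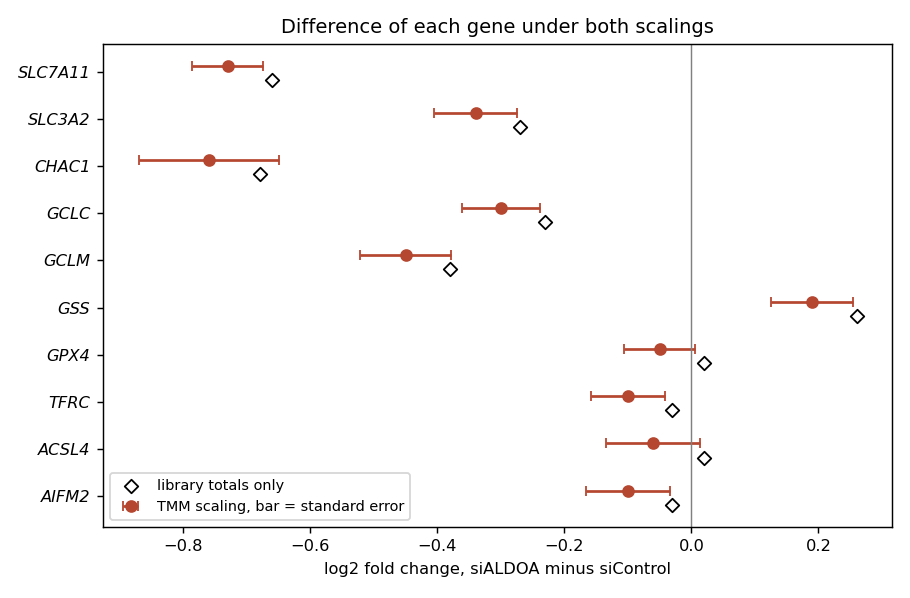
Log2 fold change of siALDOA against siControl (horizontal axis) for the 10 genes under TMM scaling (red, bars are standard errors) and with library totals only (open diamonds). SLC7A11, SLC3A2, CHAC1, GCLC and GCLM lie from -0.76 to -0.30 and the other 5 from -0.10 to 0.19 under TMM scaling, and library totals only shift all 10 upward.

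Compared per kilobase of canonical transcript, SLC3A2 (228 ± 18.6 CPM per kb) and GPX4 (221 ± 8.62) led the 10 genes in siControl cells, and their libraries overlapped. TFRC followed at 86.0 ± 4.51, SLC7A11 at 37.9 ± 1.22 and ACSL4 at 31.2 ± 2.52 CPM per kb (SD, n = 3 throughout). GSS (27.4 ± 0.759) and CHAC1 (27.2 ± 3.02) overlapped, as did CHAC1 and GCLC (24.8 ± 0.496), and AIFM2 (14.6 ± 0.165) and GCLM (10.4 ± 0.673) came last. With siALDOA the order began with GPX4 at 213 ± 4.86 CPM per kb, above SLC3A2 at 180 ± 10.5 without overlap. SLC7A11 came after GSS (31.3 ± 0.814) and ACSL4 (30.1 ± 3.38), at 22.9 ± 0.898 CPM per kb. CHAC1, at 16.1 ± 2.94, overlapped both GCLC (20.1 ± 1.09) above it and AIFM2 (13.7 ± 0.296) below it, and GCLM was last at 7.61 ± 0.309.

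Among tested genes that averaged 10 CPM or more, NRAS, PTTG1IP, RAB11FIP3, IREB2 and SLC37A3 had patterns over the 6 libraries most like that of SLC7A11, with Pearson r of log2 CPM from 0.9967 to 0.9981. The 6 libraries fall into the 2 treatment groups, so r mostly reflects the shared difference between them. The log2 fold changes were -0.43 for NRAS, -0.49 for RAB11FIP3, -0.40 for IREB2, -0.34 for SLC37A3 and -0.15 for PTTG1IP. Among the other 9 genes described here, GCLC (0.9552) and GCLM (0.9528) were the most like SLC7A11 and GSS (-0.9396) the least.

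A further 108 genes of the same pathways were listed by role, and 100 of them passed the filter on low counts. In the edgeR test 13 of them fell and 2 rose at an adjusted p < 0.05, 15% against 9.66% of all genes, with a median log2 fold change of -0.055 (0.002 over all tested genes). With library totals only, 3 fell and 3 rose, where 279 genes were lower and 896 higher over all genes. The plot by role shows that the genes called were spread over 7 of the 9 roles. For the counts per role below, the background is 5.29% of all tested genes called lower and 4.36% higher. The lists by role were chosen with earlier results of these data known.

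**Figure D4:**
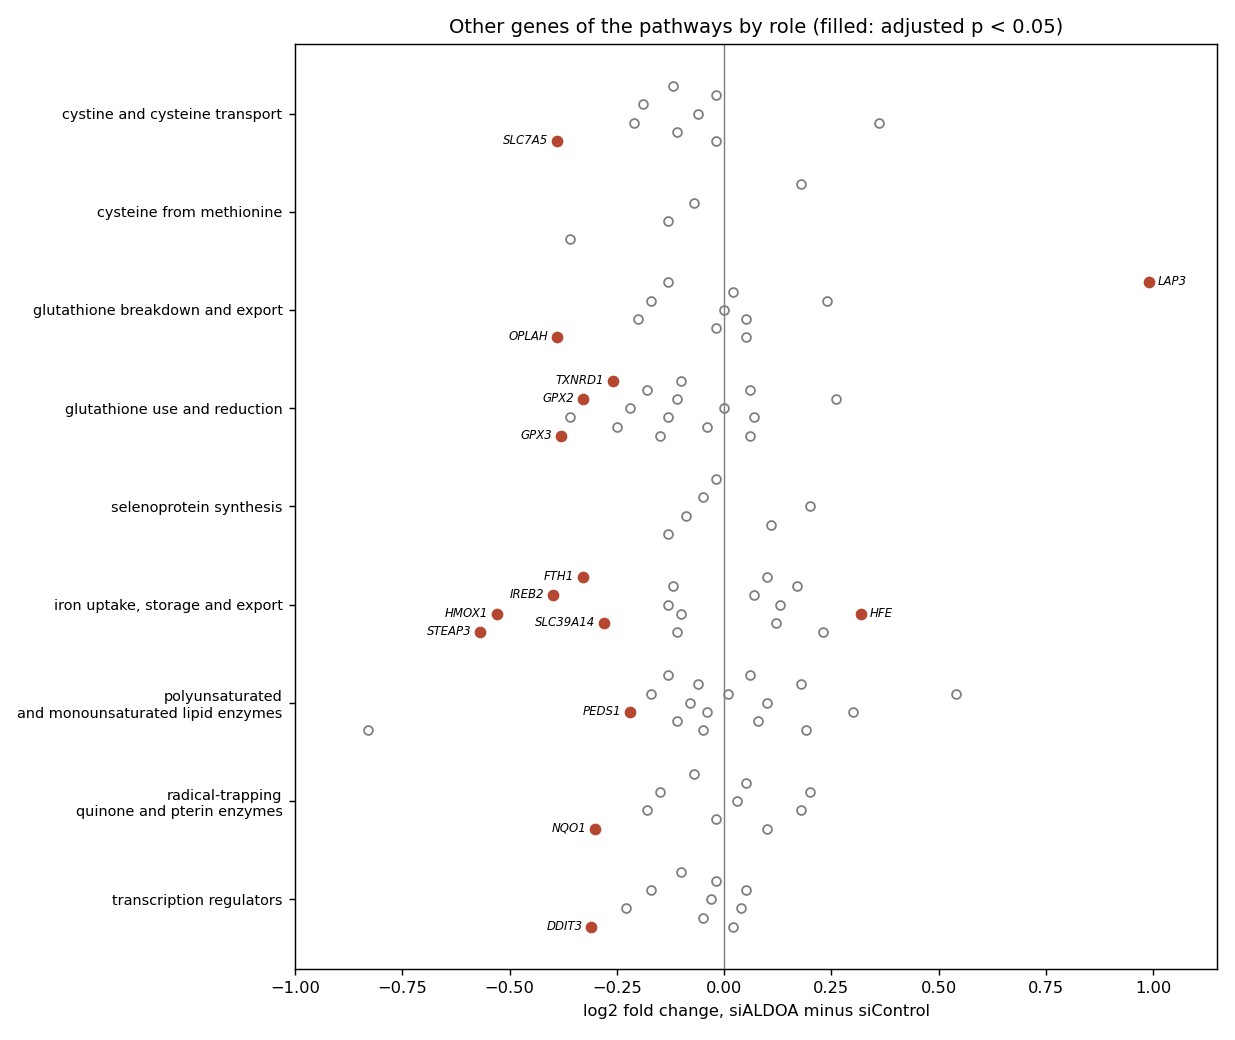
Log2 fold change of siALDOA against siControl (horizontal axis) for the 100 tested genes of 9 roles (rows), 1 point per gene. Filled points with names passed an adjusted p < 0.05, 13 below 0 and 2 above it, and the vertical position within a row has no meaning.

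Among transporters, 1 of 9 tested genes passed. SLC7A5, a light chain that also pairs with SLC3A2 and carries large neutral amino acids, was at 487, 638 and 650 CPM with siALDOA and at 706, 810 and 811 CPM with siControl. It fell by 0.39 on the log2 scale (standard error 0.086, edgeR adjusted p = 0.00538), below the siControl range in all 3 libraries. Its adjusted p was 0.0546 in DESeq2 and 0.0571 with library totals only. The other tested light chains that pair with SLC3A2, SLC7A6, SLC7A7 and SLC7A8, had log2 fold changes of -0.02, -0.12 and 0.36 and did not pass. None of the 4 tested genes that make cysteine from methionine passed, and CTH, which releases cysteine from cystathionine, had -0.36 with an adjusted p = 0.112.

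In the list for glutathione breakdown and export, 1 of 11 tested genes rose and 1 fell. LAP3, an aminopeptidase that can split the cysteinyl-glycine left by glutathione, was at 137, 158 and 159 CPM with siALDOA and at 68.9, 81.6 and 78.2 CPM with siControl. It rose by 0.99 on the log2 scale (standard error 0.072, edgeR adjusted p = 6.15e-09) in all 3 libraries and passed in every alternative. LAP3 is also known as a gene induced by interferon, and the interferon response genes listed here rose in the same libraries, whose part in the rise of LAP3 was not tested. OPLAH, the oxoprolinase that returns glutamate from the cycle, fell by 0.39 (standard error 0.10, edgeR adjusted p = 0.0198). OPLAH lost the call with library totals only (0.0902) and without siALDOA replicate 1 (0.0748), siALDOA replicate 3 (0.0647), siControl replicate 2 (0.103) or siControl replicate 3 (0.0902).

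Among genes that use or reduce glutathione and related thiols, 3 of 17 tested genes fell and 0 rose. GPX2, the gastrointestinal glutathione peroxidase, was at 500, 576 and 603 CPM with siALDOA and at 686, 714 and 704 CPM with siControl, a log2 fold change (± SE) of -0.33 ± 0.066 (edgeR adjusted p = 0.00254). TXNRD1, the cytosolic thioredoxin reductase, was at 298, 275 and 298 CPM against 348, 353 and 344 CPM, a log2 fold change of -0.26 (adjusted p = 0.00383). GPX3, the secreted peroxidase, fell by 0.38 (adjusted p = 0.0268). GPX1, the cytosolic peroxidase nearest to GPX2, had -0.13 with a 95% interval from -0.27 to 0.01 (adjusted p = 0.241), and -0.21 with an adjusted p = 0.0394 when the ribosomal RNA share was a covariate. Scaled by library totals only, GPX2 had an adjusted p = 0.0909, TXNRD1 0.155 and GPX3 0.108. GPX3 also lost the call without siALDOA replicate 2 (0.102), siALDOA replicate 3 (0.0551), siControl replicate 1 (0.0997) or siControl replicate 3 (0.127). None of the 6 genes that build selenocysteine into selenoproteins such as GPX4 passed, with log2 fold changes from -0.13 to 0.20.

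Among genes of iron uptake, storage and export, 5 of 16 tested genes fell and 1 rose. IREB2 (IRP2), the iron-sensing protein known to bind and stabilize TFRC mRNA when iron is low, was at 113, 111 and 115 CPM with siALDOA and at 149, 148 and 149 CPM with siControl. Its log2 fold change (± SE) of -0.40 ± 0.055 (edgeR adjusted p = 5.94e-05) exceeded the spread of both groups. HMOX1, which frees iron from heme, was at 16.4, 14.7 and 17.2 CPM with siALDOA and at 23.8, 22.4 and 23.4 CPM with siControl, a log2 fold change (± SE) of -0.53 ± 0.094 (adjusted p = 0.000813). STEAP3, which reduces the iron that TFRC delivers to endosomes, was at 9.92, 12 and 9.68 CPM against 15.2, 14.5 and 17.2 CPM, a log2 fold change (± SE) of -0.57 ± 0.12 (adjusted p = 0.00275). IREB2, HMOX1 and STEAP3 passed in all 14 alternative fits.

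The metal importer SLC39A14 had a log2 fold change of -0.28 (edgeR adjusted p = 0.00681, and 0.108 with library totals only). FTH1 and HFE are named after their values were seen. FTH1, the ferritin heavy chain, fell by 0.33 (adjusted p = 0.00819), with 0.167 under library totals only and 0.0527 without siALDOA replicate 2, and its processed pseudogenes make its count uncertain. HFE, a partner of TFRC, rose by 0.32 (adjusted p = 0.0243), with 0.0925 without siALDOA replicate 2, 0.0654 without siALDOA replicate 3 and 0.163 without siControl replicate 3. TFR2, the second transferrin receptor, was at 0.577 to 1.30 CPM in all libraries, and its interval of -0.72 to 0.99 leaves its difference undetermined.

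In the lipid list, 1 of 17 tested genes passed. PEDS1, the desaturase of plasmalogen synthesis, is listed under its older symbol TMEM189 beside a read-through gene that could share its reads. PEDS1 fell by 0.22 (standard error 0.067, edgeR adjusted p = 0.0370), a call that was lost in 7 of 14 alternatives, among them the fits without siALDOA replicate 1 (0.0522) or 2 (0.157) and without siControl replicate 1 (0.125), 2 (0.0891) or 3 (0.088). ACSL3, the relative of ACSL4 that handles monounsaturated fatty acids, was at 233, 211 and 204 CPM with siALDOA and at 235, 243 and 222 CPM with siControl. Its log2 fold change was -0.11 with a 95% interval from -0.24 to 0.02 (adjusted p = 0.288).

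Of 10 enzymes of radical-trapping quinones and pterins, NQO1 alone passed. This quinone reductase was at 549, 505 and 500 CPM with siALDOA and at 619, 662 and 633 CPM with siControl, a log2 fold change (± SE) of -0.30 ± 0.058 (edgeR adjusted p = 0.00191, and 0.0930 with library totals only). Of 10 transcription regulators, DDIT3 (CHOP), a stress-induced factor downstream of ATF4, fell by 0.31 (standard error 0.091, adjusted p = 0.0349). It lost the call with library totals only (0.178) and without siALDOA replicate 3 (0.150), siControl replicate 2 (0.118) or siControl replicate 3 (0.173). The mRNA of ATF4 itself was at 529, 532 and 537 CPM with siALDOA and at 529, 549 and 554 CPM with siControl, with overlapping groups and a 95% interval of the log2 fold change from -0.14 to 0.08. NFE2L2 was at 111, 98.3 and 96.7 CPM with siALDOA and at 112, 120 and 113 CPM with siControl, a log2 fold change of -0.17 (adjusted p = 0.109) that did not pass although the groups did not overlap. ATF4 and NFE2L2 are controlled largely at the level of protein, which these data do not measure, and both are named because they are known regulators of the genes described here.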

How the data were processed

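Gene counts of 6 HT29 libraries were used. Reads were mapped by the authors to hg38 (TopHat2) and summed by gfold under gene symbols, and the deposited values are raw whole-number counts. Which annotation and strand setting were used, and how multi-mapping reads were treated, is not given in the sources used here. Every file was used, and no column of authors' comparisons was present.

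Counts of all 28278 genes were filtered with filterByExpr, scaled by TMM and fitted with edgeR 4.0.16 (quasi-likelihood F-test, Benjamini-Hochberg adjustment over 15307 genes, threshold 0.05) in R 4.3.3, all 6 libraries without a covariate. Standard errors are the log2 fold change over the root of F, and log2 CPM had a prior count of 2. Intervals cover 95%. Lengths and positions came from GENCODE release 44. The fit was tested on simulated data. Same-numbered libraries of the groups correlated by 0.0262 to 0.0348 in their deviations from the group means, and differently numbered ones by -0.0457 to 0.0215. All these values are small and the sample titles name no pairs, so the numbers were not taken as pairs. A fit with a replicate block is given as an alternative.

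The 10 genes, the lists by role and the tests were chosen with earlier results of these data known. Named beside the 10 genes are their relatives CHAC2, ACSL3, SLC7A5, TFR2, GPX1 and GPX2, up to 4 genes by p per role past the threshold, and the 5 genes most like SLC7A11. ATF4, NFE2L2, CTH, SLC7A6, SLC7A7 and SLC7A8 were named outside this rule, as were FTH1 and HFE. Alternatives were DESeq2 1.42.0, limma-voom (limma 3.58.1), library totals with and without ribosomal RNA genes, no filter, leaving out each library in turn, a replicate block and a stricter filter that asked for 10 counts in all libraries. The ribosomal RNA share as a covariate was added after the data were seen. Depth was 27277538 to 33237914 counts per library.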

Additional observations from a re-analysis of the deposited data

How the results depend on the processing

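SLC7A11, CHAC1 and GCLM were called lower in all 14 alternatives, and SLC3A2 and GCLC in 13. These fits reuse the libraries on which the 10 genes were picked, so they are no independent support for the differences. Scaling by library totals only called 3 of the 10 genes lower. It called 3 other pathway genes lower and, over all genes, 279 lower and 896 higher in place of 810 and 668, with a median log2 fold change of 0.075 over all tested genes. DESeq2 called 1 of the 10 genes (GSS) higher and 5 lower, 4 other pathway genes higher and 12 lower, and 774 higher and 925 lower over all genes. With the replicate block 1 of the 10 genes (GSS) and 6 other pathway genes were higher, with 17 other pathway genes lower and 1175 lower and 987 higher over all genes. Every library correlated best with its own number, a hint from the data and not from the design. With the ribosomal RNA share as a covariate, 4 other pathway genes were higher and 15 lower (726 and 854 over all genes), GPX1 passed, PEDS1 did not and TFR2 changed to -0.30.

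Leaving out 1 library at a time, 5 of the 10 genes were lower and 0 higher throughout, other pathway genes called higher ranged from 1 to 4 and lower from 9 to 15, and all genes called lower ranged from 471 to 790 and higher from 359 to 644. The lowest counts over all genes came without siControl replicate 3 (471 lower, 363 higher) and without siControl replicate 2 (490 lower, 359 higher). The log2 fold change of CHAC2 ranged from -0.12 to 0.15 and that of TFR2 from -0.16 to 0.52, neither past the threshold. Causes of the lost calls were not tested. TFR2 rested on 18 to 42 counts per library. Counts of mRNA say nothing on protein or glutathione levels.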
